A study of Mus musculus with 6 samples.

Results

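Musashi 2 is an RNA-binding protein of blood stem cells and of aggressive myeloid leukemia. It is described here with its paralog, its partner and target, and the oncofetal RNA-binding proteins, 9 genes in all: Msi1, Msi2, Numb, Syncrip, Igf2bp1, Igf2bp2, Igf2bp3, Lin28b and Elavl1. They were taken by name from the 36083 genes of the deposited table and all 9 were found by their Ensembl identifiers. Expression was measured by RNA-seq in lineage-negative (Lin-) bcCML cells, a mouse model of blast crisis chronic myeloid leukemia, in 3 libraries labelled WT and 3 libraries labelled Sdc1-/-. In both groups KLS cells, the Kit-positive, Sca1-positive stem and progenitor fraction of B6 donors, had received the oncogenes BCR-ABL and NUP98-HOXA9 by infection, and cells positive for both were grown in NSG recipients, per the labels, and recovered from the spleen. The study's general methods name another host for this leukemia, irradiated CD45.1 mice, and which was used for these libraries is taken here from the labels. The donors of the second group lacked syndecan-1 (Sdc1), a heparan sulfate proteoglycan of the cell surface, through an allele that disrupts the sequence of its signal peptide. The cohorts were sacrificed together, the labels give no age or sex, and a figure legend of the study describes the WT libraries as technical replicates, so the p-values may measure only technical spread. Values are TPM, a transcript level corrected for transcript length and library size, rescaled between libraries by the authors.

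Musashi proteins bind short UAG-containing words in the 3′ UTR of messenger RNAs and change their translation. Numb, the best known target, is an endocytic adaptor that antagonises Notch and is segregated unequally when a progenitor divides. SYNCRIP is an RNA-binding partner of MSI2 in myeloid leukemia. LIN28B blocks the maturation of the let-7 microRNAs, which repress the IGF2BP genes, LIN28B itself and HMGA2, so these proteins are abundant in fetal tissues and scarce in adult ones. The IGF2BP proteins also read N6-methyladenosine (m6A) and protect the messages they bind, and ELAVL1 (HuR) binds AU-rich elements and stabilises its targets.

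The words through which these regulators recognise RNA were first located in the members' own transcripts, to show where Musashi and let-7 could meet them. The let-7a sequence comes from RefSeq (GRCm38.p6) and its seed, bases 2 to 8, is in capitals. The let-7 family in that table, 9 mature names from 11 genes with miR-98 among them, shares this seed. The Igf2bp, Lin28 and Hmga2 windows are 3′ UTR stretches of GENCODE M21 transcripts on GRCm38, with the complement of the seed (CUACCUC) in capitals, and they are shown because they hold the let-7 word. The Numb and Syncrip windows hold a Musashi consensus word in capitals, which is GUAGU or the same word starting with A (written AUAGU), with the first U present 1, 2 or 3 times. Each form contains the UAG core. Only the sense strand was searched.
let-7a: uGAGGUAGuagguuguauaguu
Igf2bp1 word 1 of 4: ugcgaaguaaaCUACCUCaaggugugaag
Igf2bp2: acaaauaaaagCUACCUCagguguuuuuu
Igf2bp3: uuuuuacucaaCUACCUCagguauucagu
Lin28b word 1 of 4: gggcgggaaguCUACCUCaugcaagcaca
Lin28a word 1 of 2: agccuguugaaCUACCUCauuuuugccga
Hmga2 word 1 of 4: acauucaauuuCUACCUCagcaucaguug
Syncrip let-7 word: ggguugguuaaCUACCUCaguagcagagg
Numb word 1 of 4: cccaguagagcuGUAGUcuggggauaaag
Numb word 2 of 4: agaauauuuuaaAUAGUucucaauauuaa
Numb word 3 of 4: ugcagucacuagGUAGUaguuuuaauaag
Syncrip Musashi word 2 of 35: caucagagcugGUUAGUcaggcauucca
The printed windows of Igf2bp1 (chr11:95961768-95961796), Igf2bp2 (chr16:22059463-22059491), Igf2bp3 (chr6:49086777-49086805), Lin28b (chr10:45381012-45381040), Lin28a (chr4:134005179-134005207), Hmga2 (chr10:120364214-120364242) and Syncrip (chr9:88453625-88453653 for the let-7 word, chr9:88453685-88453712 for the Musashi word) lie on the minus strand. The Numb windows, also on the minus strand, are chr12:83794921-83794949, chr12:83794806-83794834 and chr12:83794583-83794611.

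Counts of these words separated the members. The let-7 word occurred 4 times in the 3′ UTR of Igf2bp1 (6337 bases) and 4 times in that of Lin28b (4445 bases), as many or more than which only 0.396% and 0.261% of 3′ UTRs of like length (within 20%) held. Igf2bp2, Igf2bp3 and Syncrip had 1 each, which 12%, 12.9% and 37.1% of like-length 3′ UTRs reach. Msi1, Msi2, Numb and Elavl1 had 0 in the transcript examined, the RefSeq-matched one with the longest 3′ UTR. Over 21037 genes, 8.347% held the word at all. The Musashi consensus is common, present in 63.4% of all 3′ UTRs. Numb held 4 in 1405 bases, where the median 3′ UTR of like length held 2 and 28.0% held at least as many. The fourth Numb word starts 3 bases after the third and lies within the window printed for it. Msi2 itself held 10, with a like-length median of 11. Syncrip had 35 in 7245 bases against a like-length median of 16, a number reached by 0.882% of like-length 3′ UTRs. The AU-rich pentamer AUUUA occurred 17 times in Elavl1 (like-length median 7, reached by 4.389%). A match is a sequence word, and binding was not measured in these data, nor was let-7.

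**Figure D1:**
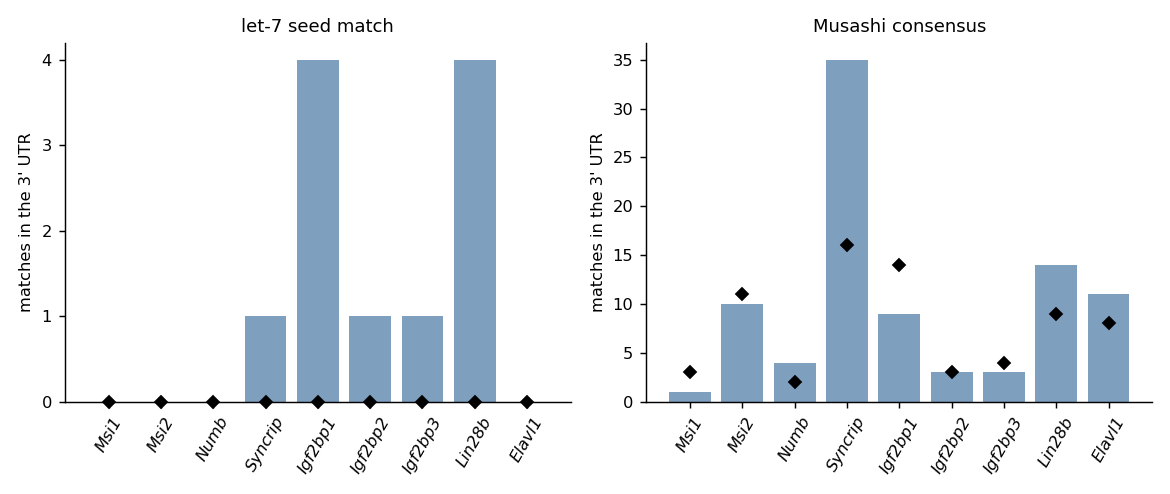
Number of let-7 seed matches (left) and Musashi consensus words (right) in the 3′ UTR of each member; bars are counts on a linear axis from 0 and diamonds the median count of 3′ UTRs of like length. Igf2bp1 and Lin28b stand out with 4 let-7 words each, and Syncrip with 35 Musashi words against a median of 16.

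The libraries as a whole set the background against which the members are read. Of 12155 genes with a mean of at least 1, 60.7% were called different between the groups by limma, fitted to log2(value + 1), at a Benjamini-Hochberg adjusted p under 0.05. The share called higher in the libraries labelled Sdc1-/- was 29.3% and the share called lower 31.3%, and in 66.7% of tested genes the groups did not overlap. A call is therefore the commoner outcome here, and it does not set a member apart from other genes. The median log2 fold change of all tested genes was -0.01. It became 0.12 after scaling each library to 1000000, the deposited sums being 1048875 to 1058263 in WT and 944973 to 951814 in Sdc1-/- libraries. Read depth is unknown, so no counting error can be given.

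The targeted gene did not check the labels. Sdc1 was listed at 1.75, 1.21 and 1.51 in the WT libraries and at 3.85, 3.8 and 4.12 in those labelled Sdc1-/-. The groups did not overlap, and the message was higher where the gene is labelled as disrupted (log2 fold change 0.99 ± 0.09 (SE), limma adjusted p = 0.000118; exact permutation test p = 0.1, the smallest that 3 against 3 allows). Which part of the transcript gave these reads was not analysed here, and directions below hold for the libraries as labelled. The groups also differed in the Y-linked genes, Eif2s3y being at most 0.012 in WT libraries and 43.2 to 49.8 in those labelled Sdc1-/-. The study's sort for this leukemia took cells carrying the markers of both oncogene vectors, which are donor cells. Donor sex thus moved with genotype, and the effects of sex and genotype on the members cannot be told apart. The sex of the hosts is not known.

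Among the members, 5 passed the minimum mean of 1 and were tested, and 4 (Msi1, Igf2bp1, Igf2bp3 and Lin28b) had lower means and were not. Any adjusted p given for these 4 comes from a fit with no minimum mean, for which the shares of 29.3% and 31.3% do not hold. Msi2, Igf2bp2 and Elavl1 were called higher in the libraries labelled Sdc1-/-, Numb was called lower, and Syncrip was not called. That is 3 of 5 higher against 29.3% of all tested genes, and 1 of 5 lower against 31.3%. In these bulk samples fewer cells of a type and less RNA per cell cannot be told apart.

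Msi2, the Musashi protein of blood stem cells and of aggressive myeloid leukemia, is encoded on chr11:88339382-88718513 (minus strand). Its level was 32.7, 34.1 and 33.7 in WT libraries and 39.0, 40.4 and 40.1 in libraries labelled Sdc1-/-. Every library labelled Sdc1-/- stood above every WT library, and both groups were tight, with coefficients of variation of 2.0% and 1.82%. The mean rose from 33.5 ± 0.67 to 39.8 ± 0.72 (SD, n = 3 each), a ratio of 1.19. The log2 fold change was 0.24 ± 0.03 (SE), with a 95% interval of 0.16 to 0.32 and a limma adjusted p of 0.000701. The size of the rise was thus small, though larger than the spread between libraries. Msi2 ranked at the 90.1th percentile of all 36083 genes in WT cells, a set in which 11369 genes were 0 in every library.

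Msi1, the paralog that is best known from neural and intestinal progenitors (chr5:115429599-115455698), was at a low level. Its WT mean of 0.17 ranked at the 57.0th percentile of all genes, 11369 of which were 0 in every library. It was listed at 0.09, 0.30 and 0.12 in WT libraries and at 0.0065, 0.014 and 0.0079 in libraries labelled Sdc1-/-. The groups did not overlap, but the highest value was below 1 and the WT libraries varied by 64.8% of their mean. In a fit with no minimum mean its limma adjusted p was 0.0645, so it was not called there either. Msi2 made up 99.5% ± 0.32 (SD, n = 3) of the summed Musashi level in WT cells and 99.98% ± 0.0099 (SD, n = 3) in Sdc1-/- cells. Of the 31-base words in Msi1 transcripts, 14 also occur in Msi2 transcripts, which is 0.135% of the words of Msi2. The list of Musashi paralogs and partners held 6 genes, of which 5 were tested, 1 was called higher, 1 lower and 3 neither, with a median log2 fold change of 0.01.

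Numb (chr12:83794034-83921934, minus strand) moved the other way. It stood at 11.3, 10.4 and 9.93 in WT libraries and at 6.83, 6.27 and 6.78 in those labelled Sdc1-/-. The lowest WT library was above the highest library labelled Sdc1-/-. The mean fell from 10.5 ± 0.69 to 6.63 ± 0.31 (SD, n = 3 each), so that WT cells held 1.59 times as much. The log2 fold change was -0.60 ± 0.06 (SE), with a 95% interval of -0.74 to -0.45 and a limma adjusted p of 0.000171. No 31-base word of Numb occurs in another gene's transcripts.

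The balance of Msi2 and Numb within a library does not depend on how libraries are scaled to each other. The ratio of the Msi2 level to the Numb level was 2.90, 3.28 and 3.39 in WT libraries and 5.71, 6.44 and 5.91 in libraries labelled Sdc1-/-. Its mean went from 3.19 ± 0.26 to 6.02 ± 0.38 (SD, n = 3 each), without overlap (exact permutation test p = 0.1, two-sided, the smallest that 3 against 3 allows). Both the rise of Msi2 and the fall of Numb entered this difference, and the fall of Numb was the larger on the log2 scale.

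**Figure D2:**
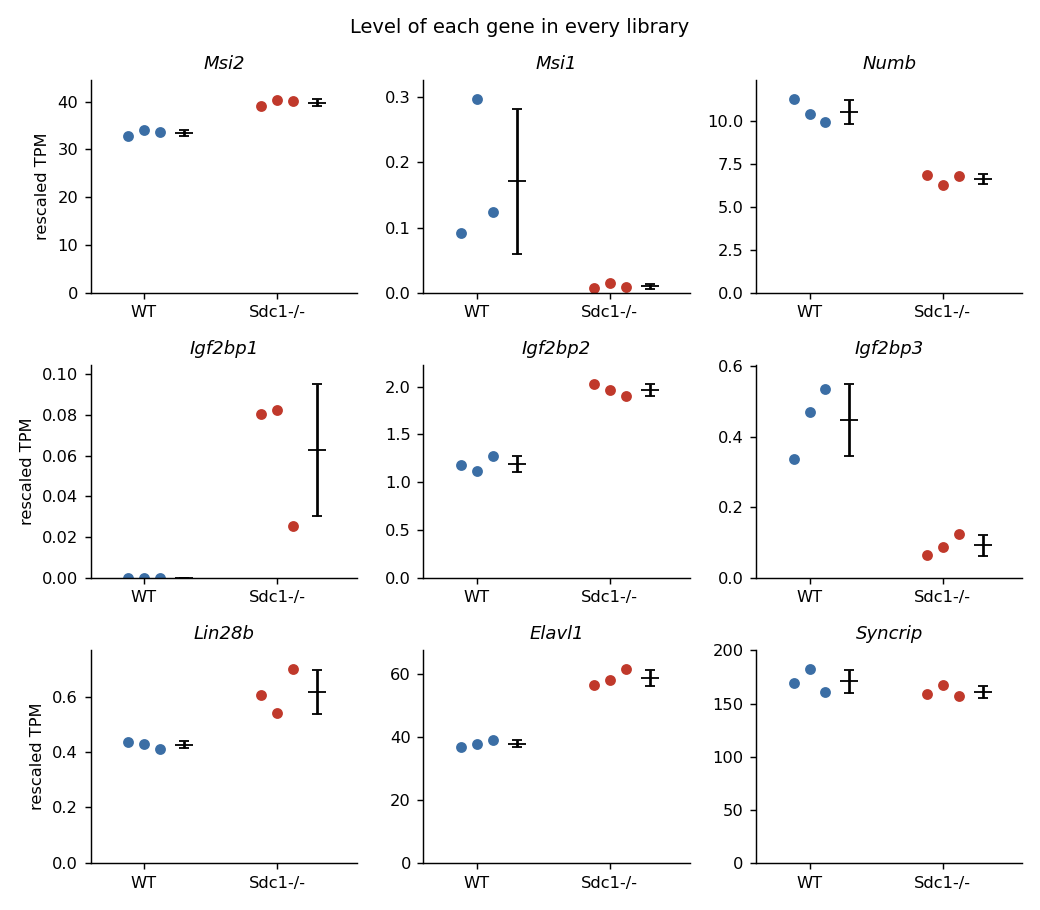
Level of each of the 9 genes in every library, in rescaled TPM on linear axes from 0 that differ between panels; points are libraries, and the bar and whiskers beside them the mean and SD of 3. The groups are separate for 8 genes and overlap for Syncrip, and they are separate for 66.7% of all tested genes. That share does not cover Msi1, Igf2bp1, Igf2bp3 and Lin28b, which stay below 1 in every library and were not tested.

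Syncrip (chr9:88447009-88482574, minus strand) was the most abundant member in both groups. It was listed at 169, 182 and 161 in WT libraries and at 159, 167 and 157 in libraries labelled Sdc1-/-. The ranges overlapped, with the means at 171 ± 10.6 and 161 ± 5.63 (SD, n = 3 each). The log2 fold change of -0.08 ± 0.05 (SE) was not called (limma adjusted p = 0.199), and its 95% interval, -0.20 to 0.04, leaves room for a modest fall. After scaling each library to 1000000 the sign turned (0.07, adjusted p = 0.29). Of its 31-base words 9.60% also occur in transcripts of other genes, chiefly Gm6501, so part of its reads may be shared.

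The 3 Igf2bp genes encode closely related proteins that bind and stabilise m6A-marked messages, and they did not move together. Igf2bp2 (chr16:22059009-22163299, minus strand), the paralog that persists in adult tissues, was listed at 1.18, 1.12 and 1.28 in WT libraries. In libraries labelled Sdc1-/- it reached 2.03, 1.96 and 1.90, above all WT libraries. The mean rose from 1.19 ± 0.08 to 1.96 ± 0.06 (SD, n = 3 each), a ratio of 1.65. The log2 fold change was 0.44 ± 0.07 (SE), with a 95% interval of 0.27 to 0.60 and a limma adjusted p of 0.00147. At this level the pseudocount of 1 understates the change.

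Igf2bp3 (chr6:49085223-49214957, minus strand), an oncofetal paralog, was higher in WT cells. It was listed at 0.34, 0.47 and 0.54 in WT libraries and at 0.064, 0.088 and 0.12 in those labelled Sdc1-/-. The groups did not overlap, and the ratio of the means was 4.86 in favour of WT, at levels under 1 throughout. It entered only the fit with no minimum mean, where its difference on the log2(value + 1) scale was -0.40 (limma adjusted p = 0.00371). Malsu1 overlaps it on the other strand, and the strand setting of the quantification is not given in the sources used here.

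Igf2bp1 (chr11:95957163-96005940, minus strand), the most strictly fetal of the paralogs, was listed at 0 in all 3 WT libraries. It was listed at 0.081, 0.082 and 0.026 in the libraries labelled Sdc1-/-. Without counts no fold can be given against a group listed at 0, and a value this low may rest on very few reads. Its values in the libraries labelled Sdc1-/- alone brought it into the fit with no minimum mean. The 3 WT libraries listed at 0 show no spread, so its p-value there is not read as support. The summed level of the 3 paralogs was 1.51 to 1.81 in WT libraries and 2.05 to 2.17 in libraries labelled Sdc1-/-. Igf2bp2 made up 72.9% ± 4.21 (SD, n = 3) of that sum in WT cells and 92.7% ± 0.65 (SD, n = 3) in Sdc1-/- cells, without overlap (exact permutation test p = 0.1, two-sided).

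Lin28b (chr10:45376620-45486395, minus strand), the let-7 antagonist of fetal blood formation, was listed at 0.44, 0.43 and 0.41 in WT libraries. The libraries labelled Sdc1-/- held 0.61, 0.54 and 0.70, all above WT. The means were 0.43 ± 0.01 and 0.62 ± 0.08 (SD, n = 3 each), a ratio of 1.45. All values were under 1, and Lin28b entered only the fit with no minimum mean. There the difference was 0.18 on the log2(value + 1) scale (limma adjusted p = 0.03). Lin28a, its paralog that also blocks the maturation of let-7, was the more abundant of the pair in every library. It stood at 2.24, 2.58 and 2.36 in WT libraries and at 0.92, 1.15 and 2.15 in libraries labelled Sdc1-/-. The third library labelled Sdc1-/- was close to the WT range and the others were far below it. The log2 fold change of Lin28a was called lower, but the call (-0.53 ± 0.18 (SE), limma adjusted p = 0.0369) was lost when any WT library, or the first or second Sdc1-/- library, was left out (adjusted p up to 0.108). It was also lost with no minimum mean (adjusted p = 0.101) and after scaling each library to 1000000 (adjusted p = 0.0766). The level of Lin28a was 5.62 ± 0.46 times that of Lin28b in WT cells and 2.24 ± 0.79 times in Sdc1-/- cells (SD, n = 3 each; exact permutation test p = 0.1, two-sided).

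**Figure D3:**
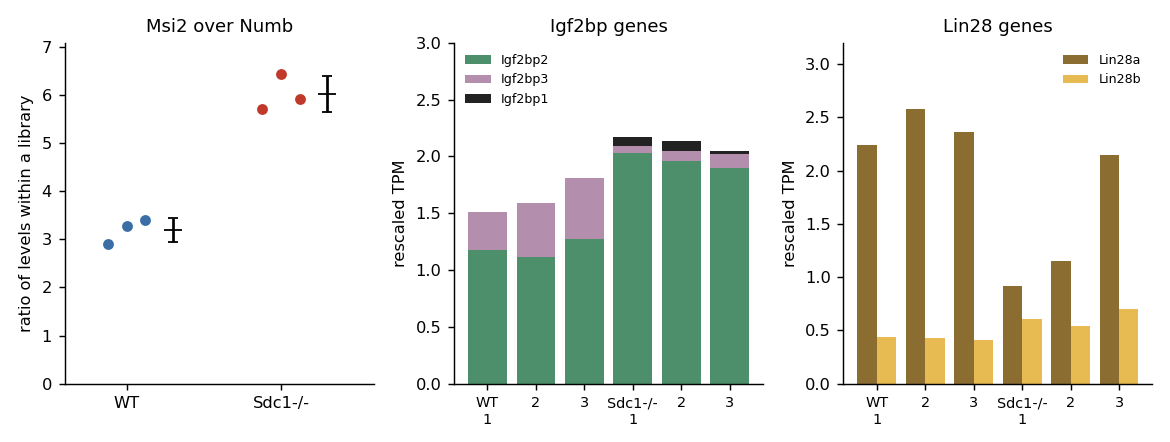
Balance between related genes in each library: the ratio of Msi2 to Numb (left; points are libraries, bar and whiskers mean and SD of 3), the stacked levels of the Igf2bp genes (middle) and the levels of Lin28a and Lin28b (right), the latter panels in rescaled TPM from 0. The Msi2 to Numb ratio is near 3.19 in WT and 6.02 in Sdc1-/- libraries, and Igf2bp3 takes a visible share of the Igf2bp sum mainly in WT libraries.

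Elavl1 (chr8:4285382-4325413, minus strand), the ubiquitous AU-rich element binder HuR, was called higher by about as much as Numb was called lower. It was listed at 36.8, 37.8 and 39.1 in WT libraries and at 56.4, 58.1 and 61.5 in libraries labelled Sdc1-/-. The groups were far apart relative to their spread. The mean rose from 37.9 ± 1.17 to 58.7 ± 2.58 (SD, n = 3 each), a ratio of 1.55. This gave a log2 fold change of 0.62 ± 0.04 (SE), with a 95% interval of 0.52 to 0.72 and a limma adjusted p of 3e-05. It made up 99.7% ± 0.08 of the summed Elavl level in WT and 99.2% ± 0.30 in Sdc1-/- cells (SD, n = 3 each), the neural paralogs Elavl2, Elavl3 and Elavl4 being at most 0.45 in any library. Ccl25 overlaps it on the other strand.

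**Figure D4:**
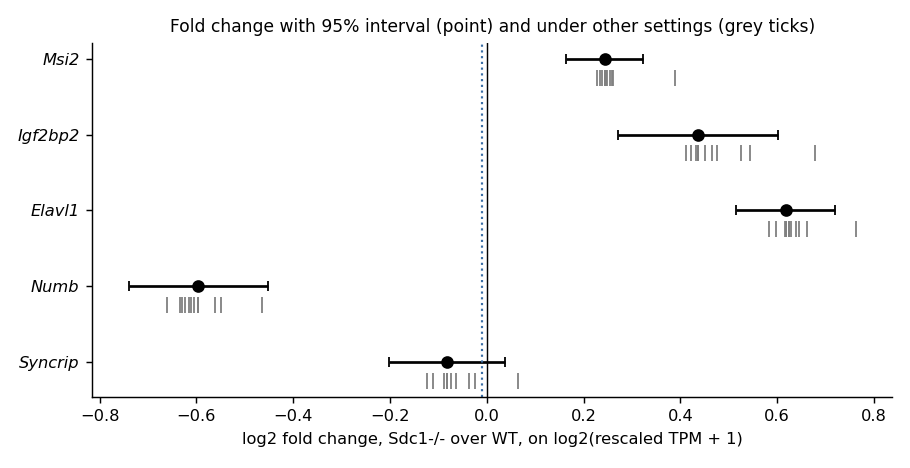
Log2 fold change of the 5 tested members, Sdc1-/- over WT, on the log2(rescaled TPM + 1) scale; points and bars are the estimate and its 95% interval, grey ticks the values under the alternative settings, and the dotted line the median of all tested genes. Msi2, Igf2bp2 and Elavl1 lie above 0 and Numb below 0 under every setting in which they were fitted, and Syncrip crosses 0.

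The order of the levels was shared at the top. In both groups Syncrip was followed by Elavl1, Msi2, Numb and Igf2bp2, and the ranges of neighbours did not overlap. Below them, in WT cells, Igf2bp3 (0.45 ± 0.10) and Lin28b (0.43 ± 0.01) had overlapping ranges and could not be ordered. In cells labelled Sdc1-/- Lin28b came before Igf2bp3, whose range overlapped that of Igf2bp1, and Msi1 was last. Elavl1 was 1.13 ± 0.03 times Msi2 in WT cells and 1.47 ± 0.05 times in Sdc1-/- cells (SD, n = 3 each).

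The genes most like each member over the 6 libraries, by Pearson's r of log2(value + 1) among the tested genes with a mean of at least 5, are given as a description. They were Ssx2ip (r = 0.9997) and Susd1 (0.999) for Msi2, Cox4i1 (0.999) and Retsat (0.998) for Numb, and Crebzf (0.9999) and Gigyf2 (0.999) for Elavl1. For Igf2bp2 they were Fam160b2 (0.9996) and Psrc1 (0.999). The number of genes with an r over 0.95 was 1376 for Msi2, 1421 for Numb, 1411 for Igf2bp2 and 1414 for Elavl1, so the nearest genes are drawn from a large number that follow the groups. Syncrip had 10 such genes, led by Crnkl1 (r = 0.992) and Il10rb (0.989). The levels of Crebzf, a transcription cofactor, were 11.3 ± 0.65 in WT and 24.9 ± 2.04 in Sdc1-/- libraries (SD, n = 3 each).

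The proposed targets of Musashi did not share a direction. Of 9 genes in that list, all tested, 5 were called higher in cells labelled Sdc1-/- and 3 were called lower, with a median log2 fold change of 0.18 beside -0.01 for all tested genes. Bcat1, the branched-chain amino acid transaminase whose message MSI2 binds, rose from 1.28 ± 0.19 to 2.94 ± 0.46 (SD, n = 3 each; log2 fold change 0.79 ± 0.11 (SE), limma adjusted p = 0.000722). Smad3, a transcription factor downstream of TGF-beta receptors, rose from 2.30 ± 0.17 to 4.12 ± 0.15 (log2 fold change 0.64, adjusted p = 0.000171). Myc, the most abundant of the list, rose by less, from 124 ± 3.41 to 141 ± 3.76 (0.18, adjusted p = 0.00369). Hoxa9 (0.18) and the tetraspanin gene Tspan3 (0.20) were the other genes called higher, and the Hoxa9 call was lost without WT library 3, Sdc1-/- library 1 or Sdc1-/- library 2 (adjusted p 0.0506 to 0.0541). Since NUP98-HOXA9 carries part of HOXA9, whether its reads count toward Hoxa9 was not tested. Besides Numb, the genes called lower were Cdkn1a, the p21 cell cycle inhibitor (-0.48, adjusted p = 3.46e-05), and the TGF-beta receptor gene Tgfbr1 (-0.31, adjusted p = 0.00511).

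Numb acts on Notch, and the 18 genes listed around this pair were mixed. Of 13 tested, 3 were called higher and 5 lower, with a median log2 fold change of -0.14. Hes1, a transcriptional target of Notch, rose from 4.01 ± 0.10 to 7.27 ± 0.57 (SD, n = 3 each; 0.72, limma adjusted p = 9.5e-05). Notch1 fell from 1.85 ± 0.31 to 1.02 ± 0.19 (-0.49, adjusted p = 0.00781). Rbpj, the DNA-binding partner of Notch, fell too (-0.42, adjusted p = 0.00461), as did Mdm2 (-0.31), an E3 ligase that binds Numb, and Dtx4 (-0.38). Notch2 (0.25) and Lnx2 (0.48), which encodes an E3 ligase of the family that ubiquitinates Numb, were called higher. Eps15, an endocytic partner of Numb and the most abundant gene of the list, was at 52.7 ± 1.17 and 50.1 ± 1.46 and was not called (adjusted p = 0.117).

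The Lin28, let-7 and fetal programme held Hmga2, the largest change in the 7 lists of RNA-binding and related genes. Of 20 genes 15 were tested, 9 called higher and 4 lower, with a median log2 fold change of 0.25. Hmga2, the fetal chromatin protein whose message carries 4 let-7 words, was listed at 1.08, 1.18 and 1.22 in WT libraries and at 5.21, 5.54 and 5.58 in libraries labelled Sdc1-/-. No library of one group came near the other, and the mean differed 4.70 times (log2 fold change 1.58 ± 0.06 (SE), limma adjusted p = 3.16e-06). Its paralog Hmga1 was far more abundant, 283 ± 10.8 in WT, and was not called (0.08, adjusted p = 0.105). After scaling each library to 1000000 or quantile normalization Hmga1 was called higher (0.23 and 0.20). Among the genes of microRNA production in this list, Dgcr8, the partner of Drosha in the microprocessor, rose by 0.55 (adjusted p = 7.5e-05), Drosha itself by 0.27 and the export factor Xpo5 by 0.22. Dicer1, which makes the final cut, fell by 0.22 on the log2 scale (adjusted p = 0.00389), a call lost after scaling each library to 1000000 (adjusted p = 0.135). Tut4, which adds uridine to let-7 precursors, was called higher (0.43), and Dis3l2, the nuclease that degrades the uridylated precursor, lower (-0.42). Lin28a and Arid3a (-0.33) were the others called lower.

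Carrying a let-7 word did not go with one direction. Of 20 genes in the fetal list 12 held it and 8 of these were tested: Igf2bp2, Hmga2, Arid3b, E2f6 and Plagl2 were called higher, Lin28a and Arid3a lower, and Hmga1 was not called. Across all tested genes with a 3′ UTR the 131 genes with at least 2 let-7 words had a median log2 fold change near 0, with 32.8% called higher and 34.4% lower. Among the 9792 genes with no let-7 word 31.5% were called higher and 33% lower. The 820 tested genes with at least 10 Musashi consensus words had 26% called higher and 28.5% lower, and the 3457 with none 31.7% and 35.8%. These groups differ in 3′ UTR length (median 4300.5 and 328 bases), and no test was run on them.

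The m6A machinery, which marks the messages that IGF2BP proteins read, was listed with 18 genes, of which 16 were tested. Of these 8 were called higher and 1, the demethylase gene Fto, lower (-0.16), with a median log2 fold change of 0.18. The Fto call was lost after scaling each library to 1000000 (adjusted p = 0.695). Mettl3, the catalytic subunit of the methyltransferase, was listed at 14.0, 14.0 and 11.9 in WT libraries and at 34.3, 32.4 and 30.0 in those labelled Sdc1-/-. It rose 2.42 times (log2 fold change 1.22 ± 0.08 (SE), limma adjusted p = 1.79e-05). Zc3h13 (0.82, adjusted p = 6.85e-05) and Rbm15 (0.51), accessory subunits of the same complex, also rose. The other listed subunits were not called: Mettl14 (-0.01), Wtap (-0.13), Virma (0.08) and Cbll1 (0.10). Hnrnpa2b1, an abundant nuclear RNA-binding protein linked to m6A, rose from 799.6 ± 25.5 to 1273 ± 60.7 (0.67, adjusted p = 2.25e-05), and the nuclear reader gene Ythdc1 by 0.45.

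Binders of AU-rich elements were called higher more often than lower, as were the fetal, m6A and other cytoplasmic RNA-binding lists. Here 57.1% of tested genes were called higher and 21.4% lower, against 29.3% and 31.3% of all tested genes. The share called higher was 60%, 50% and 55% in those lists, and the share called lower 26.7%, 6.25% and 25%. Of 17 listed genes 14 were tested, 8 called higher, Elavl1 among them, and 3 lower, with a median log2 fold change of 0.27. Khsrp, which promotes decay of AU-rich messages and the processing of let-7, rose from 40.3 ± 0.45 to 61.1 ± 1.11 (SD, n = 3 each; 0.59, limma adjusted p = 8.7e-06). Rc3h2, a member of the Roquin family of decay factors, rose from 1.6 ± 0.18 to 2.94 ± 0.45 (0.60, adjusted p = 0.00211). Hnrnpd (AUF1), the most abundant of the list, rose from 508 ± 45.3 to 618 ± 14.0 (0.29, adjusted p = 0.00602), and Tial1 by 0.44. The genes called lower were Zfp36, which encodes the decay factor tristetraprolin (-0.43), Pum2 (-0.34) and Celf2 (-0.11). The sign of Celf2 turned after scaling each library to 1000000 (0.04), and its call was lost without WT library 1 or 2 or Sdc1-/- library 1 or 3.

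Among 20 other cytoplasmic RNA-binding proteins, all tested, 11 were called higher and 5 lower, with a median log2 fold change of 0.26. Pabpc4, a poly(A)-binding protein, rose from 97.6 ± 0.57 to 151 ± 3.64 (SD, n = 3 each; 0.62, limma adjusted p = 6.17e-06). Stau2 rose from 2.71 ± 0.38 to 4.52 ± 0.49 (0.58, adjusted p = 0.00222) and Fxr2, a relative of the fragile X protein, from 26.9 ± 2.66 to 37.4 ± 0.75 (0.46, adjusted p = 0.00101). Pabpc1, the most abundant, rose from 993.6 ± 48.6 to 1265 ± 75.5 (0.35, adjusted p = 0.00138). The stress granule genes G3bp1 and G3bp2 went opposite ways (0.39 and -0.31). Cpeb4 was called lower (-0.45), as were Cpeb2 (-0.25), Mbnl1 (-0.14) and Qk (-0.19). The call of Cpeb2 was lost without any single library except WT library 3, that of Qk without WT library 1 or 3 or Sdc1-/- library 2 or 3, and the sign of Mbnl1 turned after scaling each library to 1000000 (0.01). Over the 7 lists together and without the members, 41 of 83 tested genes were called higher (49.4%) and 19 lower (22.9%), against 29.3% and 31.3% of all tested genes. After scaling each library to 1000000 these counts were 52 and 12. That scaling also moved the background: more of all tested genes were called higher and fewer lower. Their median log2 fold change went from -0.01 to 0.12. The shares of 29.3% and 31.3% therefore cannot be set beside the counts of 52 and 12. Genes that the text names from these lists beyond the 3 largest changes and the most abundant, and other marker genes below a log2 fold change of 1, were chosen after their values were seen.

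**Figure D5:**
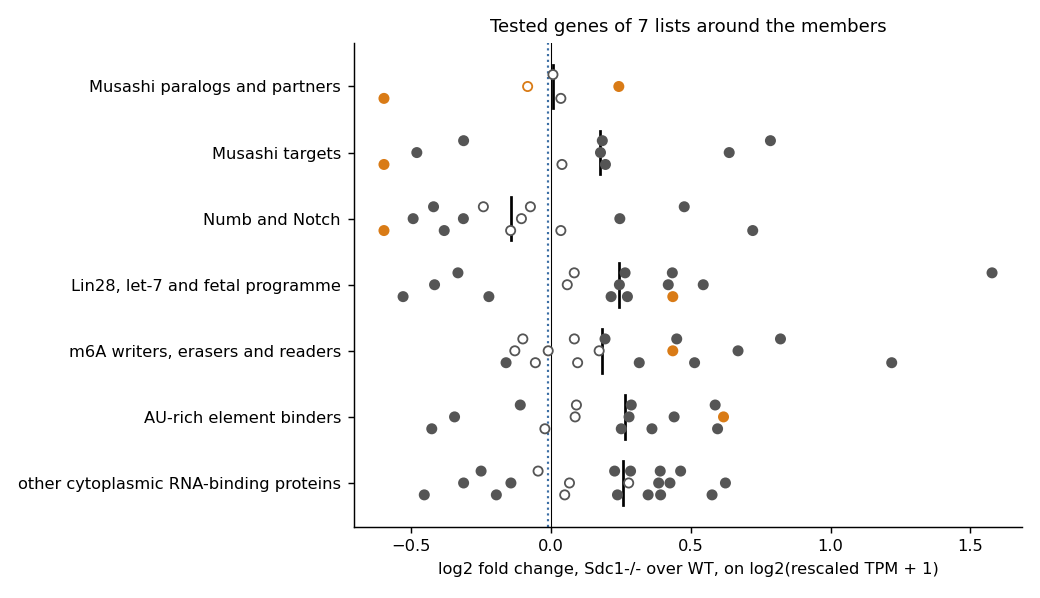
Log2 fold change, Sdc1-/- over WT, of each tested gene in the 7 lists of RNA-binding and related genes; filled points were called at an adjusted p under 0.05 and open points were not, orange marks the members, black bars the list medians and the dotted line the median of all tested genes. Hmga2 at 1.58 and Mettl3 at 1.22 lie farthest to the right, and Numb at -0.60 farthest to the left. This scale, log2(rescaled TPM + 1), shrinks changes at low levels. By the ratio of means, Sdc1-/- over WT, Notch1 (0.55) and Lin28a (0.59) fell further than Numb (0.63).

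Maturation, growth and sex markers moved with the groups beside all these results. All 10 neutrophil maturation genes were called lower, their summed level running from 13158 to 14096 in WT libraries and from 4727 to 4865 in libraries labelled Sdc1-/-. S100a8, the most abundant of them, fell by 1.5 on the log2 scale. Of the other 9, Camp fell by 0.46 and the rest, S100a9, Ngp, Ltf, Lcn2, Mmp8, Mmp9, Retnlg and Cxcr2, by 1.52 to 1.92. Monocyte and macrophage genes were called lower in 7 of 8 tested (summed level 568 to 590 against 255 to 263), among them Ly6c2, Ccr2, Adgre1 and Cd68, and erythroid genes in 8 of 10 (10481 to 11158 against 5850 to 6240; the other 2 were higher), among them Hbb-bt, Hba-a1, Hba-a2 and Alas2. Proliferation genes were called higher in 9 of 10 (1140 to 1193 against 1435 to 1449), with Mki67 up by 1.49 and the most abundant, Pcna, by 0.16, a call that most omissions of 1 library ended. The exception was Ccnb1, called lower (-0.13, limma adjusted p = 0.0393), and among the monocyte genes Cx3cr1 was called higher (0.27). Their part in the members' changes was not tested.

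The identity of the cells was read from the same kind of lists. The progenitor genes were all present, with Mpo highest at 322 ± 11.1 in WT and 245 ± 4.18 in Sdc1-/- cells, though 9 of 12 were called lower and 3 higher. Platelet genes summed to 499.6 to 527 in WT and 513 to 526 in Sdc1-/- libraries, but 4 of the 6 tested were called lower, Gp1bb (-0.61), Ppbp (-0.39), Gp9 (-0.31) and Itga2b (-0.26), and 2 higher, Pf4 (0.20), the most abundant, and Vwf (1.63). The median log2 fold change of this list was -0.28. B cell genes summed to 3.53 to 4.28 in WT and 3.57 to 4.39 in Sdc1-/- libraries. The T cell genes Cd3e, Cd3g and Cd8a were at most 0.083, Cd4 at most 0.12 and Cd2 at most 0.20. Cd3d was listed higher, at 0.22 to 0.87 across libraries. The highest genes of the B cell and the T and NK cell lists, Cd79b (2.29 ± 0.34 in WT) and Klrb1c (7.03 ± 0.28), were not called. The endothelial gene Cdh5 and fibroblast gene Col1a1 were near 0, and of the 3 stromal and endothelial genes tested 1 was called higher and 2 lower. Col1a2 rose from 18.8 ± 0.36 to 23.2 ± 0.05, Pecam1 fell from 15.3 ± 0.62 to 12.9 ± 0.08 and Pdgfrb fell from 7.31 ± 0.32 to 4.18 ± 0.15 (SD, n = 3 each). Neural genes, which matter for Msi1 and the Elavl paralogs, were near 0 (Sox2 and Rbfox3 at 0 in every library) except Tubb3, which was called lower (-1.10). The Y-linked genes Ddx3y, Eif2s3y, Kdm5d and Uty were all called higher.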

How the data were processed

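The authors quantified single-end reads from a stranded mRNA kit with kallisto and sleuth 0.30.0 (tools and the build mm10 are named in the submitters' processing notes) and deposited a signal per gene and library, TPM rescaled between libraries. A second deposited table holds the authors' own sleuth comparison and was not used. Symbols came from GENCODE M21 (35454 of 36083 identifiers matched). On log2(value + 1), limma 3.58.1 (R 4.3.3) compared the groups, without covariates, in all 12155 genes whose mean reached 1, with trended variances and Benjamini-Hochberg adjustment at 0.05; the fit was tested on simulated data. The design had assumed unscaled TPM. Members and lists were chosen with earlier results of these data known. Genes named were the members, Sdc1, per RNA-binding list the 3 called genes with the largest change and the most abundant gene, per marker list the most abundant gene and any called gene at or above a log2 fold change of 1, and per tested member the 2 most similar genes. Xist, of the sex list, was not found by symbol among the 36083 identifiers, so it could not be read. Same-numbered libraries did not deviate together. Python 3.11.15, pandas 2.3.3, numpy 2.4.6 and matplotlib 3.10.9 were also used.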

Additional observations from a re-analysis of the deposited data

How the results depend on the processing

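Across 14 alternative fits, 96 named genes gave 1328 values, of which 1273 kept their direction and their side of the threshold, 39 lost their call, 7 gained one and 9 changed sign. Msi2, Igf2bp2, Elavl1 and Numb kept direction and call in every fit that held them (Msi2 0.23 to 0.39, Igf2bp2 0.41 to 0.68, Elavl1 0.58 to 0.76, Numb -0.66 to -0.46), and so did Sdc1 (0.90 to 1.35). With no minimum mean, which adds genes of low level by construction, members called higher numbered 5 and members called lower 2. Of these, Igf2bp1, Lin28b and Igf2bp3 stayed below 1 in every library, and Igf2bp1 passed that filter only through the libraries labelled Sdc1-/-. The shares of 29.3% and 31.3% of tested genes hold for a mean of at least 1 and cannot be set beside these counts. After scaling each library to 1000000, genes called lower numbered 2380 (genes called higher 5286). In the context lists, genes called lower then numbered 12 (52 higher). The log2 fold change turned sign there for Syncrip (0.065), Eps15 (0.073), Crnkl1 (0.098), Il10rb (0.022), Celf2 (0.036), Mbnl1 (0.0050), Cd79b (0.024) and Klrb1c (0.0074). Cd79b ran from -0.14 to 0.0023 when 1 library was left out, the highest without WT replicate 2. Omitting 1 library left 6475 to 6962 genes called.

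Same-numbered libraries correlated at 0.15, -0.0083 and 0.02, so the numbers were not taken to pair them. With a replicate block 7624 genes called was the total, and members called lower were 2, since Syncrip passed narrowly (log2 fold change of Syncrip -0.08, limma adjusted p = 0.05), and the cause was not tested.

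For the members below the minimum mean a pseudocount of 0.1 or 0.5 changed the size and kept the sign. The difference of Msi1, below the minimum mean, was -1.23 and -0.38. The difference of Igf2bp1, below the minimum mean, was 0.68 and 0.17. The difference of Igf2bp3, below the minimum mean, was -1.51 and -0.67, and the difference of Lin28b, below the minimum mean, was 0.44 and 0.27. Depth is unknown, so the counting error of these levels cannot be stated.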
